A study of Homo sapiens with 6 samples.

Results

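The aminoacyl-tRNA synthetases are the enzymes that join each amino acid to its transfer RNA. The 36 synthetase genes described here were chosen by name from a table of 11461 protein-coding gene entries, and all 36 were found in it and passed the minimum level for testing. Of these, 20 encode the enzymes of the cytosol, including GARS and KARS, whose genes also supply the mitochondrial enzymes, and 16 with names ending in 2 encode enzymes used in mitochondria. The cells were HepG2-hCAR, descended from 1 cell of the human liver carcinoma line HepG2 into which a lentivirus had brought a human cDNA for NR1I3, the constitutive androstane receptor, under doxycycline control. Messenger RNA was sequenced in 3 libraries after 72 h of doxycycline at 1 µg/ml and in 3 libraries of the same clone after 72 h of vehicle. Doxycycline is a tetracycline, a class of antibiotics known to block bacterial and mitochondrial ribosomes. No library had the antibiotic without the inducible receptor, so what the drug does and what the receptor does cannot be told apart.

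A synthetase recognises its amino acid, activates it with ATP and transfers it to the matching transfer RNA, and the charged transfer RNA then delivers it to the ribosome. The enzymes fall into 2 unrelated structural classes, I and II. In animal cells several cytosolic enzymes are held with the scaffold proteins AIMP1, AIMP2 and EEF1E1 in a large multisynthetase complex, while others work free. The mitochondrial enzymes are encoded in the nucleus and imported, and they charge the transfer RNAs used to make the few proteins encoded by mitochondrial DNA. When uncharged transfer RNA builds up, the kinase GCN2 (gene EIF2AK4) phosphorylates the initiation factor eIF2, which favours translation of the transcription factor ATF4. Many cytosolic synthetase genes are known ATF4 targets, and ATF4 binds with C/EBP proteins to the C/EBP-ATF response element, whose core is TGATGNAA.

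Promoter sequences were available for 30 of the 36 genes (39 promoters of 250 bases before to 50 after the start, from RefSeq, GRCh38.p14). None was matched to DARS, LARS, VARS, YARS, AARS2 and VARS2. The core was found, on either strand, in 7 of 16 cytosolic genes (43.8%) and in 1 of 14 mitochondrial genes (7.14%), and in 3.62% of all 35116 promoters in the table. Here and for the motifs below, a gene was counted if any of its promoters held the motif. The share over all promoters is per promoter, so it is not in the same unit as the share of genes. The sequences below are the 60 bases around each match, shown because most of these genes are among those that rose. They are read 5′ to 3′ on the strand of the gene, with the core in capitals. On the opposite strand the core reads TTNCATCA.
TARS (chr5:33440941-33441000, plus strand): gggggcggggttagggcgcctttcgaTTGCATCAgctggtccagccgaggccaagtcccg
CARS (chr11:3057392-3057451, minus strand): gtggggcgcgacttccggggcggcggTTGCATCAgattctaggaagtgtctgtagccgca
GARS (chr7:30594819-30594878, plus strand): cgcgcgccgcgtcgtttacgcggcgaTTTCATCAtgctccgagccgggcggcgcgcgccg
MARS (chr12:57488038-57488097, plus strand): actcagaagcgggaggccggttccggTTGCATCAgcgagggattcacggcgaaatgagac
AARS (chr16:70289660-70289719, minus strand): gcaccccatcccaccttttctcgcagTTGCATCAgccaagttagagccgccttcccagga
NARS (chr18:57621789-57621848, minus strand): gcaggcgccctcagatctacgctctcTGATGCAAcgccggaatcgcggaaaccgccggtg
IARS (chr9:92293677-92293736, minus strand): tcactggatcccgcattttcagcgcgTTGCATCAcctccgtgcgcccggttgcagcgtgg
YARS2 (chr12:32756061-32756120, minus strand): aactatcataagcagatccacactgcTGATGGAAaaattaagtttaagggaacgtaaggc

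In 6 of the 7 cytosolic genes the open position held C (TGATGCAA), a form present in 0.866% of all promoters and chosen for counting after these matches were seen. The first base of the match lay at -2 in CARS, -4 in MARS, -13 in IARS and -33 in GARS, and at 3 in TARS and 15 in NARS, counted from the start site with no position 0. In AARS it lay at -187 and in YARS2 at -197. Of the 7 cytosolic genes with the core, 5 rose with doxycycline and none fell (0 also at an unadjusted p below 0.05 in limma). Of the 9 cytosolic genes whose promoters were searched without a match, 1 rose (HARS) and 1 fell (KARS). YARS, which rose, and DARS, which fell, had no matched promoter to search and are in neither group. Over all genes tested 15.2% rose and 13.6% fell, and these groups are small. The median log2 fold change was 0.21 over those with the core and -0.01 over those without it, and this difference was not tested. The other motifs searched were the E-box CACGTG and the NRF1 site (GCGCA, then any base, then GCGC), each on either strand. The E-box was found in 1 of 16 cytosolic and 3 of 14 mitochondrial genes, and in 7.26% of all promoters. The NRF1 site was found in 3 of 16 cytosolic and 3 of 14 mitochondrial genes, and in 5.78% of all promoters.

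The libraries were alike in their summed values. The deposited FPKM (fragment numbers divided by the length of the transcript and by the size of the library) summed to 205626 to 208884 in doxycycline libraries and 204318 to 209372 in vehicle libraries. The number of reads behind them is unknown. NR1I3 was at 321 ± 8.51 FPKM with doxycycline and 3.24 ± 0.290 FPKM with vehicle (SD, n = 3 libraries each, as for all values with an error below). Nothing in the labels says that replicate libraries were separate cultures, so the p-values measure the spread between these libraries, which may be technical. Of 8 liver markers, 8 were in the table, and 6 fell with doxycycline (75.0%, against 13.6% of all genes tested). Among these 6, ALB reached the minimum level for testing only through its vehicle values, so its fall is uncertain. The liver marker APOB was high, at 444 ± 41.7 FPKM with doxycycline and 819 ± 23.6 FPKM with vehicle. ALB (albumin) was near 0, at 0.373 ± 0.0951 FPKM with doxycycline and 1.87 ± 0.0837 FPKM with vehicle, although it is a defining marker of liver cells. TTR (2.09 FPKM with doxycycline and 3.90 FPKM with vehicle) and FGB (2.4 and 5.04 FPKM) were also low. HNF4A averaged 5.30 and 7.97 FPKM and did not pass the test. Its doxycycline values (3.65, 4.00 and 8.24 FPKM) overlapped its vehicle values (7.63, 7.77 and 8.51 FPKM). APOA1 (85.6 and 294 FPKM), SERPINA1 (122 and 187 FPKM) and TF (60.5 and 149 FPKM) were high. Of 11 markers of stromal, endothelial and blood cells, 2 were in the table and only CD68 passed the minimum level. CD68 averaged 5.08 ± 0.618 FPKM with doxycycline and 8.5 ± 0.211 FPKM with vehicle.

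The comparison asks which transcripts differ between doxycycline and vehicle cells. Among the cytosolic or shared synthetases 7 rose, 2 fell and 11 did not pass the test. TARS, CARS, HARS, GARS, MARS, YARS and AARS rose by 1.12-fold to 1.31-fold, and DARS and KARS fell to 0.887-fold and 0.888-fold. Among the mitochondrial synthetases none rose (0 also at an unadjusted p below 0.05), 4 fell and 12 did not pass. NARS2 and RARS2 fell to 0.734-fold and 0.755-fold, and VARS2 and IARS2 fell to 0.867-fold and 0.878-fold. Fold here is the ratio of mean FPKM, doxycycline over vehicle. FPKM is a share of each library, and in bulk RNA fewer cells with a transcript and less of it per cell cannot be told apart.

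The test was limma on log2(FPKM + 1) over the 10469 genes that averaged 1 FPKM or more, two-sided, and a gene was called at a Benjamini-Hochberg adjusted p below 0.05. Over all genes tested 28.8% were called, 15.2% higher and 13.6% lower. Of the cytosolic or shared synthetases 35.0% were called higher and 10.0% lower, and of the mitochondrial ones 0.0% higher and 25.0% lower. Mitochondrial genes were more spread between replicates, with a median SD of 5.94% of the mean with doxycycline and 6.73% with vehicle. For the cytosolic or shared genes it was 2.62% and 3.38%, so these shares of calls are not directly comparable. The median log2 fold change was 0.03 over the cytosolic or shared synthetases, -0.10 over the mitochondrial ones and 0.01 over all genes tested. Doxycycline and vehicle values were fully apart in 16 of the 36 synthetases (44.4%), against 47.1% of all genes tested. The 11 cytosolic genes without overlap were 8 higher and 3 lower with doxycycline, and the 5 mitochondrial genes without overlap were all lower. Over all genes tested, 24.8% were higher without overlap and 22.3% lower.

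**Figure D1:**
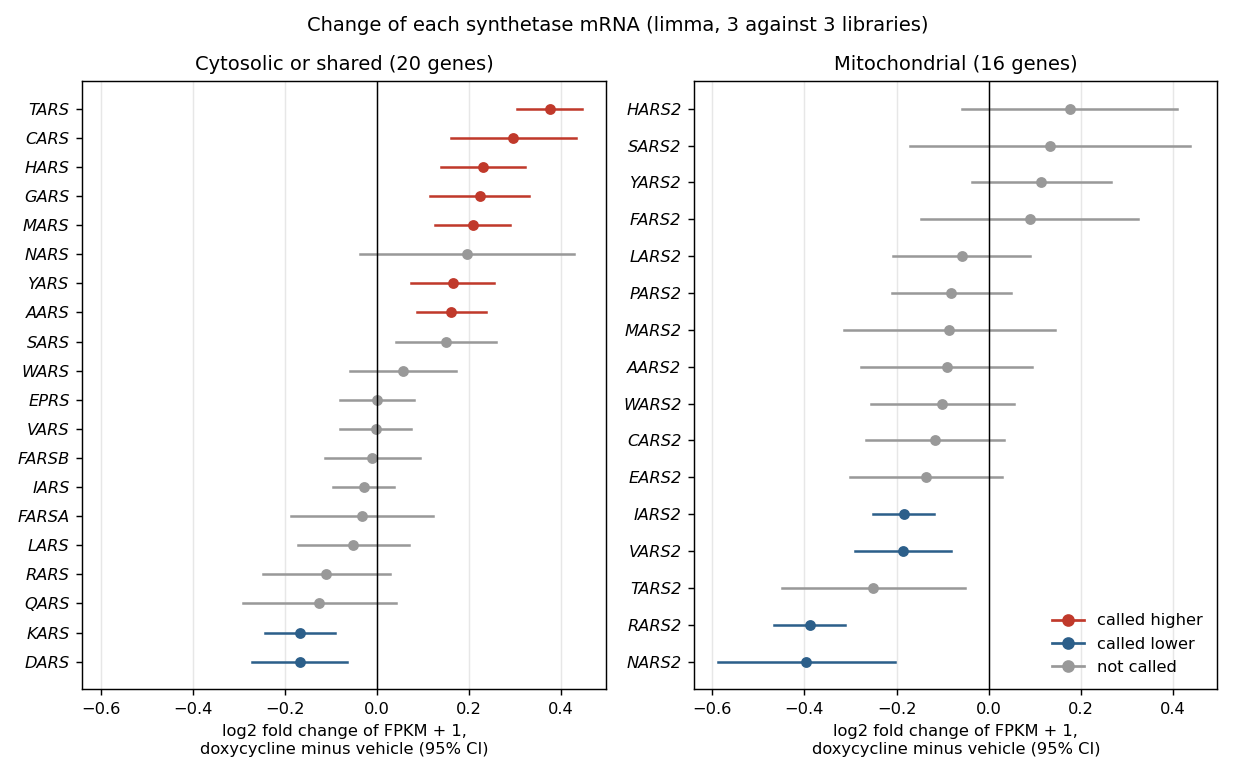
Log2 fold change of FPKM + 1, doxycycline minus vehicle, for 20 cytosolic or shared (left) and 16 mitochondrial (right) synthetase genes, with 95% confidence intervals from limma. Red marks the 7 genes called higher, blue the 6 called lower and grey those not called. The points run from -0.40 (NARS2) to 0.37 (TARS).

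The synthetases spanned a wide range of levels, which FPKM allows to be compared between genes because it is scaled to length. The median level over the cytosolic or shared genes was 32.3 FPKM with doxycycline and 31.8 FPKM with vehicle. Over the mitochondrial genes the median level was 5.82 FPKM with doxycycline and 5.98 FPKM with vehicle, close to the median over all genes tested (6.99 FPKM with doxycycline and 6.86 FPKM with vehicle). AARS, the alanine enzyme, had the highest level, at 87.9 ± 2.48 FPKM with doxycycline and 78.5 ± 1.42 FPKM with vehicle. The lowest level was that of PARS2, the mitochondrial proline enzyme, at 2.71 ± 0.163 FPKM with doxycycline and 2.92 ± 0.0765 FPKM with vehicle. IARS2 and RARS2 stood above the other mitochondrial genes. IARS2 was the synthetase with the second highest mean over the 6 libraries, above its cytosolic counterpart IARS. HARS2 was also above HARS, and in the other pairs of enzymes for the same amino acid the cytosolic mRNA was the more abundant. Across the 36 genes, Spearman's rho between mean level and log2 fold change was 0.16, a description only, since all values come from the same 6 libraries. Within each compartment rho had the opposite sign, at -0.123 over the 20 cytosolic or shared genes and -0.265 over the 16 mitochondrial genes.

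**Figure D2:**
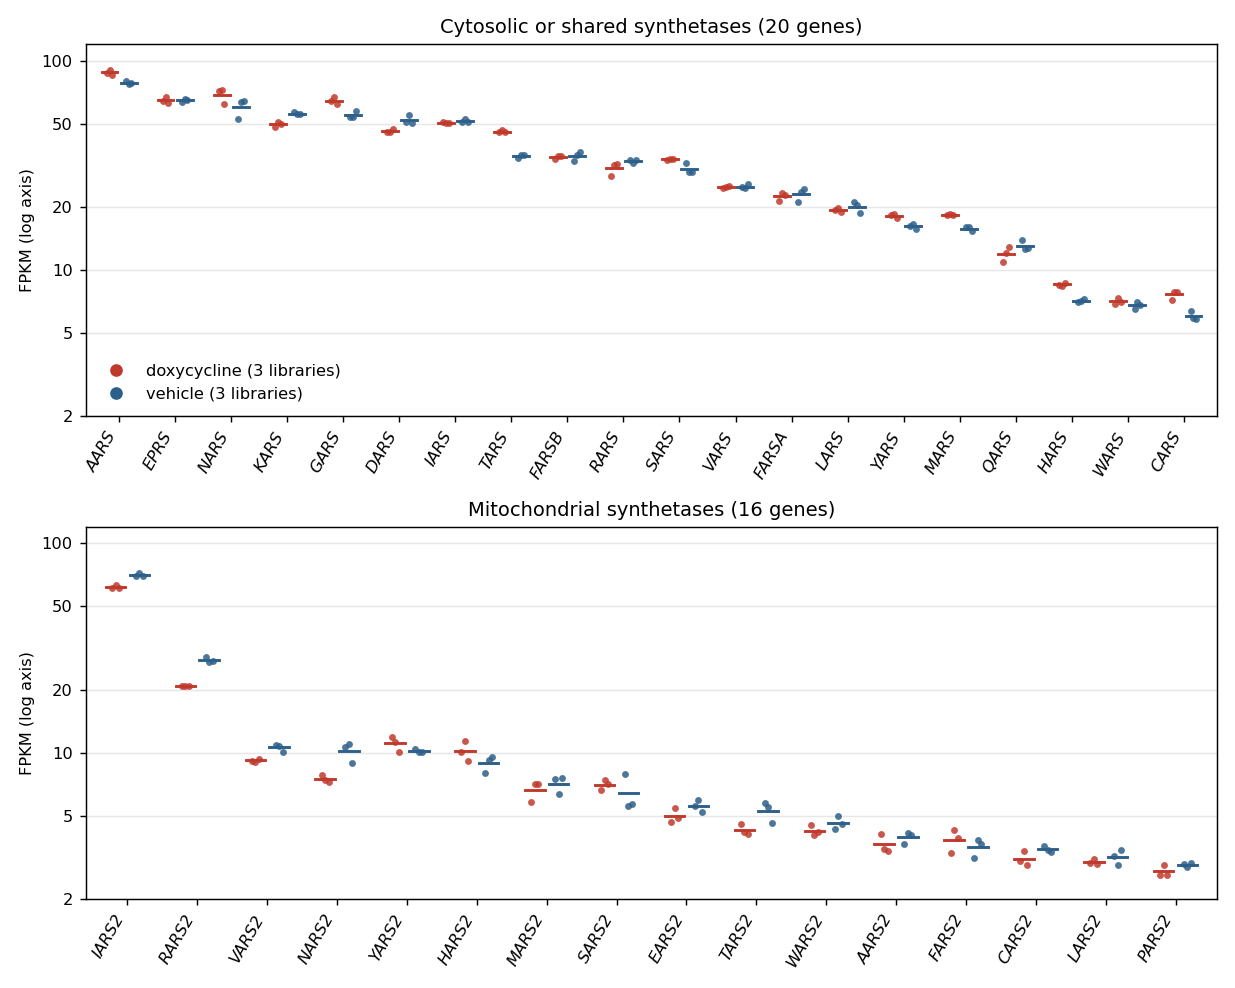
FPKM on a log axis in each of the 3 doxycycline (red) and 3 vehicle (blue) libraries for the 20 cytosolic or shared (top) and 16 mitochondrial (bottom) synthetase genes, ordered by vehicle mean, with bars at the group means. Most cytosolic genes lie above 10 FPKM. IARS2 (61.8 FPKM with doxycycline and 70.4 FPKM with vehicle) and RARS2 (20.8 and 27.6 FPKM) stand above the other mitochondrial genes.

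TARS, the threonine enzyme, showed the largest change among the cytosolic genes (GRCh37 chromosome 5, 33440802 to 33469644, plus strand). TARS had 45.5, 46.6 and 45.5 FPKM in the doxycycline libraries, against 34.3, 35.6 and 35.5 FPKM in the vehicle libraries. All doxycycline libraries lay well above all vehicle libraries, and the spread within each group was small. Its log2 fold change was 0.37 (SE 0.03, limma adjusted p = 0.000315), and it was called at an adjusted p below 0.05 under all 16 other settings and also below 0.01. CARS, the cysteine enzyme (chromosome 11, 3022152 to 3078843, minus strand), had 7.19, 7.86 and 7.89 FPKM with doxycycline, against 6.39, 5.92 and 5.82 FPKM with vehicle. These groups did not overlap, and the ratio of the means was 1.27 (log2 fold change 0.30, SE 0.06, limma adjusted p = 0.0107).

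HARS charges histidine transfer RNA and lies head to head with HARS2, its mitochondrial counterpart, on chromosome 5 (140052758 to 140071609, minus strand). HARS had 8.51, 8.41 and 8.67 FPKM in the doxycycline libraries and 7.05, 7.07 and 7.27 FPKM in the vehicle libraries. The replicates were tight and the groups stood apart (log2 fold change 0.23, SE 0.04, limma adjusted p = 0.00616). HARS2 (140071011 to 140078876, plus strand) had 10.1, 11.4 and 9.15 FPKM with doxycycline, against 7.98, 9.23 and 9.55 FPKM with vehicle. Its groups overlapped and it did not pass the test (log2 fold change 0.18, 95% interval -0.06 to 0.41). The 2 listed genes overlap by 599 bases on opposite strands. The library kit keeps strand, but whether the counting used it is not given in the sources used here, so reads of the overlap may be shared between them. HARS also overlaps WDR55 by 952 bases on the opposite strand, where reads may be shared in the same way. WDR55 was called higher (6.50 ± 0.200 FPKM with doxycycline and 5.56 ± 0.241 FPKM with vehicle). HARS2 also overlaps ZMAT2 by 612 bases on the same strand, and ZMAT2 was called higher (44.4 ± 0.585 FPKM with doxycycline and 40.6 ± 1.57 FPKM with vehicle).

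The RefSeq start sites of HARS and HARS2 lie 85 bases apart, and their promoter windows share 184 bases. The shared stretch is shown because both genes are read outward from it, HARS2 along this strand and HARS along the other. No letters are in capitals because the motifs searched were not found in it.
HARS and HARS2 (chr5:140691321-140691504, GRCh38.p14, plus strand): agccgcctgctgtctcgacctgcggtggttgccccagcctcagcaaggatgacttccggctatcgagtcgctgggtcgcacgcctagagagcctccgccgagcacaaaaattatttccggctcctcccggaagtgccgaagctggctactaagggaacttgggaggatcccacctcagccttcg

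GARS, the glycine enzyme of both cytosol and mitochondria (chromosome 7, 30634297 to 30673649, plus strand), had 64.4, 67.1 and 61.7 FPKM with doxycycline, against 53.9, 53.6 and 57.5 FPKM with vehicle. All 3 doxycycline values were above the vehicle values, by 1.17-fold on average (log2 fold change 0.22, SE 0.04, limma adjusted p = 0.0128). MARS, the methionine enzyme and a member of the multisynthetase complex (chromosome 12, 57869228 to 57911352, plus strand), had 18.3, 18.5 and 18.3 FPKM with doxycycline, against 16.0, 16.0 and 15.3 FPKM with vehicle. The groups did not overlap (log2 fold change 0.21, SE 0.03, limma adjusted p = 0.00595). The end of MARS overlaps by 982 bases the end of DDIT3, the stress transcription factor CHOP, on the opposite strand. DDIT3 averaged 12.0 ± 0.813 FPKM with doxycycline and 11.4 ± 1.47 FPKM with vehicle and did not pass.

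The other called increases were smaller. AARS had 87.66, 90.50 and 85.57 FPKM with doxycycline, against 79.97, 77.14 and 78.37 FPKM with vehicle, without overlap (log2 fold change 0.16, limma adjusted p = 0.0108). YARS, the tyrosine enzyme, had 18.3, 18.5 and 17.7 FPKM with doxycycline, against 16.1, 16.6 and 15.6 FPKM with vehicle, also without overlap (log2 fold change 0.16, adjusted p = 0.0208). The YARS call ended when vehicle replicate 1 (adjusted p = 0.0556) or 3 (0.0626) or doxycycline replicate 1 (0.0634) or 2 (0.0645) was left out, and its adjusted p lay between 0.0173 and 0.0645 under all alternatives. SARS, the serine enzyme, which also starts the route to selenocysteine transfer RNA, had 33.6, 33.9 and 34.0 FPKM with doxycycline, against 32.4, 29.5 and 29.3 FPKM with vehicle. Its groups did not overlap but it missed the threshold (adjusted p = 0.0516), with vehicle replicate 1 nearest to the doxycycline values. Without vehicle replicate 1 SARS was called (adjusted p = 0.0102, the lowest of its alternatives, which reached 0.139).

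Both cytosolic genes that fell encode class II enzymes of the multisynthetase complex. DARS, the aspartate enzyme (chromosome 2, 136664247 to 136743670, minus strand), had 45.8, 45.8 and 47.2 FPKM with doxycycline, against 50.7, 55.3 and 50.4 FPKM with vehicle. The doxycycline values were all lower, and vehicle replicate 2 was the highest (log2 fold change -0.17, SE 0.04, limma adjusted p = 0.0307). The DARS call ended when doxycycline replicate 1 (adjusted p = 0.0868), 2 (0.0863) or 3 (0.0597) was left out, and its adjusted p lay between 0.0235 and 0.0868 under all alternatives. KARS, the lysine enzyme of both cytosol and mitochondria, had 48.3, 51.1 and 49.5 FPKM with doxycycline, against 57.0, 55.3 and 55.4 FPKM with vehicle. It was lower in all doxycycline libraries (log2 fold change -0.17, limma adjusted p = 0.0104). KARS was called at an adjusted p below 0.05 under all 16 other settings but not at a limit of 0.01. KARS overlaps TERF2IP by 858 bases on the opposite strand, and TERF2IP, a telomere protein, was called higher (24.2 ± 0.289 FPKM with doxycycline and 20.5 ± 0.272 FPKM with vehicle).

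The remaining cytosolic genes did not pass, and most had changes near 0. EPRS, 1 protein with both the glutamate and the proline enzyme, averaged 64.7 ± 2.25 FPKM with doxycycline and 64.6 ± 0.984 FPKM with vehicle, and the 95% interval of its log2 fold change was -0.08 to 0.08. VARS, the valine enzyme, had 24.7, 24.9 and 25.2 FPKM with doxycycline, against 24.8, 24.5 and 25.8 FPKM with vehicle, with overlapping groups (interval -0.08 to 0.07). FARSA and FARSB encode the α and β subunits of the phenylalanine enzyme, which pair in equal number. FARSA averaged 22.5 ± 1.02 FPKM with doxycycline and 23.0 ± 1.72 FPKM with vehicle (interval -0.19 to 0.12). FARSB averaged 34.7 ± 0.633 FPKM with doxycycline and 35.0 ± 1.74 FPKM with vehicle (interval -0.11 to 0.09). For IARS, LARS and WARS, the isoleucine, leucine and tryptophan enzymes, the log2 fold changes were -0.03, -0.05 and 0.06, and for QARS, the glutamine enzyme, -0.13. NARS, the asparagine enzyme, was among the most variable, with 71.2, 72.3 and 62.4 FPKM with doxycycline, against 52.4, 63.2 and 64.3 FPKM with vehicle. Its groups overlapped, and the interval of its log2 fold change, -0.04 to 0.43, spans changes as large as those called in other genes.

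The cytosolic enzymes were also counted by whether they belong to the multisynthetase complex. Of 12 genes outside the complex 6 rose and none fell (0 also at an unadjusted p below 0.05), with a median log2 fold change of 0.16. Of 8 genes within the complex MARS rose and DARS and KARS fell, with a median of -0.08. Over all genes tested 15.2% rose and 13.6% fell, with a median of 0.01. Of 13 cytosolic genes known as ATF4 targets 6 rose and none fell (0 also at an unadjusted p below 0.05), with a median of 0.16. Of the 7 others HARS rose and DARS and KARS fell, with a median of -0.11. These subgroups share genes, were chosen with earlier results of these data known, and the differences between them were not tested. By structural class, 3 of 9 class I genes rose and 0 fell (0 also at an unadjusted p below 0.05), and 4 of 10 class II genes rose and 2 fell, leaving out EPRS, which holds an enzyme of each class.

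**Figure D3:**
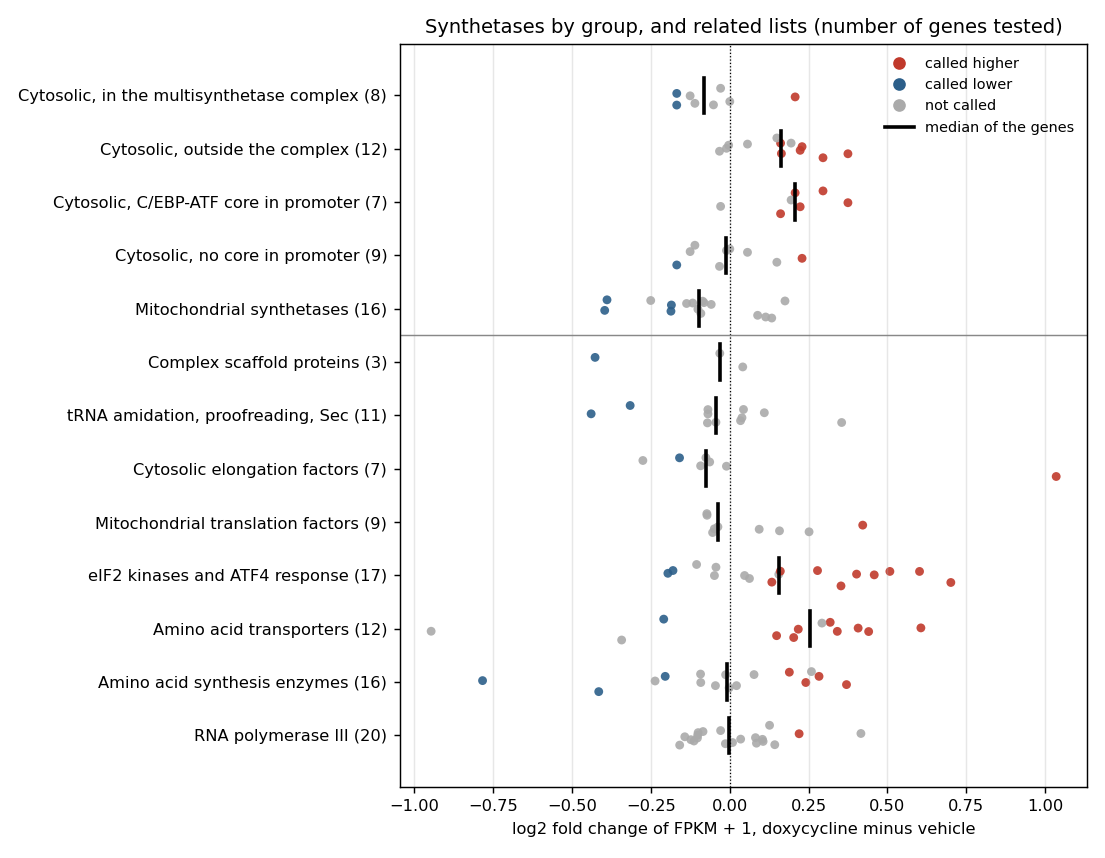
Log2 fold change of FPKM + 1, doxycycline minus vehicle, of single genes (points) in groups of synthetases (above the line) and in related lists (below it), with the number of genes tested in brackets and the median as a black bar. Red and blue points were called higher and lower, and medians were 0.16 outside the multisynthetase complex, -0.08 within it and -0.10 for mitochondrial synthetases. Some genes appear in more than 1 row.

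RARS2, the mitochondrial arginine enzyme, gave the smallest p among the mitochondrial genes (chromosome 6, 88224096 to 88299721, minus strand). RARS2 had 20.8, 20.9 and 20.8 FPKM in the doxycycline libraries, against 28.5, 27.1 and 27.3 FPKM in the vehicle libraries. The doxycycline values were almost the same in all libraries and far below the vehicle values (log2 fold change -0.39, SE 0.03, limma adjusted p = 0.000378). Its cytosolic counterpart RARS, a member of the complex, had 28.1, 31.9 and 32.2 FPKM with doxycycline, against 33.4, 32.5 and 33.7 FPKM with vehicle. The RARS groups did not overlap, with doxycycline replicate 1 standing low, and the gene did not pass (log2 fold change -0.11, 95% interval -0.25 to 0.03).

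NARS2, the mitochondrial asparagine enzyme (chromosome 11, 78147007 to 78285919, minus strand), had 7.79, 7.40 and 7.27 FPKM with doxycycline, against 10.6, 11.0 and 8.96 FPKM with vehicle. The groups did not overlap although the vehicle libraries were spread (log2 fold change -0.40, SE 0.08, limma adjusted p = 0.0131). NARS2 and RARS2 were called at an adjusted p below 0.05 under all 16 other settings. At a limit of 0.01 RARS2 was called and NARS2 was not. IARS2, the mitochondrial isoleucine enzyme (chromosome 1, 220267444 to 220321383, plus strand), had 61.1, 63.3 and 61.2 FPKM with doxycycline, against 69.8, 71.7 and 69.8 FPKM with vehicle. All doxycycline values were lower (log2 fold change -0.18, SE 0.03, limma adjusted p = 0.00424), while cytosolic IARS had 50.9, 50.4 and 50.1 FPKM with doxycycline, against 50.8, 52.8 and 51.0 FPKM with vehicle.

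VARS2, the mitochondrial valine enzyme (chromosome 6, 30876019 to 30894236, plus strand), had 9.16, 9.04 and 9.36 FPKM with doxycycline, against 10.9, 10.8 and 10.1 FPKM with vehicle. It was lower in all doxycycline libraries (log2 fold change -0.19, SE 0.04, limma adjusted p = 0.0223). The VARS2 call ended when vehicle replicate 1 (adjusted p = 0.0669) or 2 (0.0706) or doxycycline replicate 1 (0.0641) or 2 (0.0665) was left out, and its adjusted p lay between 0.0177 and 0.0706 under all alternatives. VARS2 shares 5865 bases with GTF2H4 on the same strand, so the authors' counting could split reads between them. GTF2H4 averaged 8.23 ± 0.715 FPKM with doxycycline and 7.06 ± 0.437 FPKM with vehicle and did not pass.

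The other mitochondrial genes did not pass. TARS2, the mitochondrial threonine enzyme, had 4.56, 4.18 and 4.08 FPKM with doxycycline, against 5.75, 5.48 and 4.63 FPKM with vehicle. Its groups did not overlap (adjusted p = 0.0672), and without vehicle replicate 3, the lowest of its group, it was called lower (adjusted p = 0.0226, the lowest of its alternatives, which reached 0.167). CARS2, EARS2, WARS2, AARS2, MARS2, PARS2 and LARS2, the enzymes for cysteine, glutamate, tryptophan, alanine, methionine, proline and leucine, had log2 fold changes from -0.14 (EARS2) to -0.06 (LARS2). CARS2 had 3.03, 3.40 and 2.90 FPKM with doxycycline, against 3.58, 3.41 and 3.36 FPKM with vehicle. MARS2 had 5.81, 7.06 and 7.06 FPKM with doxycycline, against 7.44, 6.34 and 7.54 FPKM with vehicle. The groups overlapped in both genes. FARS2, YARS2, SARS2 and HARS2, the enzymes for phenylalanine, tyrosine, serine and histidine, had log2 fold changes from 0.09 (FARS2) to 0.18 (HARS2). YARS2 overlaps DNM1L, a gene of mitochondrial division, by 18161 bases on the opposite strand. SARS2, the mitochondrial serine enzyme, had 6.66, 7.37 and 7.05 FPKM with doxycycline, against 7.91, 5.58 and 5.67 FPKM with vehicle. Vehicle replicate 1 stood above the other vehicle libraries and, when it was left out, SARS2 was called higher (adjusted p = 0.0268, the lowest of its alternatives, which reached 0.791).

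The difference between compartments was measured directly in 17 pairs of a cytosolic and a mitochondrial gene for the same amino acid. In each library the log2 ratio of FPKM + 1 was taken, cytosolic over mitochondrial. The ratio was higher with doxycycline in 15 of 17 pairs, and in 10 pairs the groups did not overlap. Among single genes, as opposed to ratios, 47.1% of all genes tested did not overlap. An exact two-sided permutation test cannot go below p = 0.1 with 3 against 3 libraries, and those 10 pairs reached that value (adjusted p = 0.17 over the pairs). The log2 ratio of TARS to TARS2 was 3.15 ± 0.0765 with doxycycline and 2.53 ± 0.159 with vehicle, a difference of 0.63, the largest of the 17. The log2 ratio of NARS to NARS2 was 3.03 ± 0.0937 with doxycycline and 2.44 ± 0.257 with vehicle, a difference of 0.59. For CARS and CARS2 the difference was 0.41, for MARS and MARS2 0.29 and for RARS and RARS2 0.28. The phenylalanine genes went the other way, at -0.12 for FARSA and -0.10 for FARSB against FARS2, with overlapping groups. For leucine, serine, tyrosine and histidine the difference was 0.01 to 0.05 and the groups overlapped. Some pairs share a gene (EPRS with EARS2 and PARS2, FARSA and FARSB with FARS2), so the pairs are not independent.

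**Figure D4:**
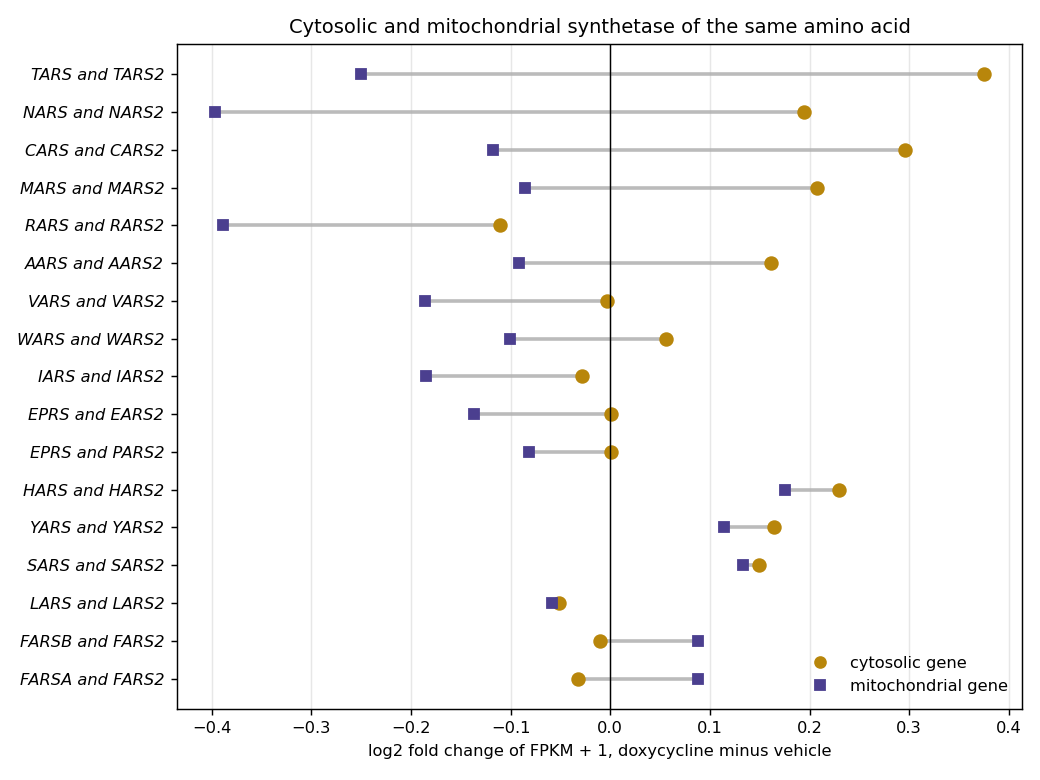
Log2 fold change of FPKM + 1, doxycycline minus vehicle, of the cytosolic (circle) and mitochondrial (square) synthetase gene for the same amino acid, ordered by the difference between them. The cytosolic gene lies to the right in 15 of 17 pairs, most widely for TARS and TARS2 (0.37 and -0.25).

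Summed over the 20 cytosolic or shared genes, the level was 709, 732 and 705 FPKM in the doxycycline libraries, against 674, 690 and 690 FPKM in the vehicle libraries. Over the 16 mitochondrial genes the sum was 163, 168 and 161 FPKM with doxycycline, against 186, 185 and 181 FPKM with vehicle. Neither pair of groups overlapped, and the ratio of the sums was 4.35, 4.35 and 4.38 with doxycycline and 3.63, 3.72 and 3.81 with vehicle. IARS2 and RARS2 carried much of the mitochondrial sum. Without these genes it was 81.2, 84.3 and 78.8 FPKM with doxycycline, against 87.4, 86.5 and 83.8 FPKM with vehicle, and the groups overlapped. The sums describe abundant genes more than rare ones and were not tested.

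Of the 3 scaffold proteins of the multisynthetase complex, AIMP1 fell and the other two did not pass. AIMP1, which holds the arginine and glutamine enzymes in the complex and is also known as the precursor of a secreted cytokine, had 25.50, 26.78 and 26.01 FPKM with doxycycline, against 34.15, 36.05 and 36.09 FPKM with vehicle. It was lower in every doxycycline library (limma adjusted p = 0.000456), a larger decrease than that of any synthetase of the complex. AIMP2 averaged 35.1 ± 0.954 FPKM with doxycycline and 34.1 ± 2.12 FPKM with vehicle, and EEF1E1 averaged 29.5 ± 1.86 FPKM with doxycycline and 30.1 ± 1.28 FPKM with vehicle.

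Lists of steps beside aminoacylation were read against all genes tested, of which 15.2% rose and 13.6% fell (28.8% called). Of 11 tested genes of transfer RNA amidation, formylation, proofreading and selenocysteine none rose (1 at an unadjusted p below 0.05) and 2 fell, both of the selenocysteine route. SEPSECS, which makes selenocysteinyl transfer RNA, averaged 3.61 ± 0.455 FPKM with doxycycline and 5.23 ± 0.0869 FPKM with vehicle (limma adjusted p = 0.00876). EEFSEC, the elongation factor for selenocysteine, averaged 6.89 ± 0.254 FPKM with doxycycline and 8.83 ± 0.675 FPKM with vehicle (adjusted p = 0.0125). Of 7 cytosolic elongation factors EEF1A2 rose and EEF1B2 fell. EEF1A2, the tissue-restricted form of the factor that carries charged transfer RNA to the ribosome, averaged 3.60 ± 0.312 FPKM with doxycycline and 1.25 ± 0.187 FPKM with vehicle. EEF1B2, its exchange factor, averaged 165 ± 1.5 FPKM with doxycycline and 184 ± 1.87 FPKM with vehicle. Of 9 mitochondrial elongation and release factors GFM1, a translocase of the mitochondrial ribosome, rose (10.8 ± 0.259 FPKM with doxycycline and 7.85 ± 0.801 FPKM with vehicle) and none fell (0 also at an unadjusted p below 0.05). Of 20 genes of RNA polymerase III, which transcribes transfer RNA genes, POLR3C rose and none fell (2 at an unadjusted p below 0.05).

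Genes of the pathway that links uncharged transfer RNA to synthetase genes were counted in the same way. Of 17 tested genes of the eIF2 kinases and the ATF4 response 9 rose and 2 fell, with a median log2 fold change of 0.16, where 15.2% of all genes tested rose and 13.6% fell. ATF4 itself averaged 180 ± 3.48 FPKM with doxycycline and 164 ± 2.89 FPKM with vehicle (limma adjusted p = 0.0119), a gene chosen after its values were seen. EIF2AK4, the GCN2 kinase, also chosen after its values were seen, fell to 8.55 ± 0.410 FPKM with doxycycline, against 9.81 ± 0.286 FPKM with vehicle (adjusted p = 0.0351). The other gene of the list that fell, DDIT4, averaged 138 ± 4.54 FPKM with doxycycline and 158 ± 4.41 FPKM with vehicle (limma adjusted p = 0.00866). EIF2AK1, EIF2AK2, EIF2AK3, ATF3, DDIT3 and XPOT did not pass. The largest increases in the list were in VLDLR, a lipoprotein receptor (2.75-fold), SESN2, a nutrient stress sensor (1.6-fold), TRIB3, a pseudokinase that restrains ATF4 (1.44-fold), and NUPR1, a stress regulator (1.59-fold). On the log2 scale these increases were larger than that of TARS, the largest of the synthetases. VLDLR was near the minimum level, at 1.53 ± 0.0846 FPKM with doxycycline and 0.56 ± 0.057 FPKM with vehicle. It reached that level only through its doxycycline values, so its fold is uncertain.

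Of 12 amino acid transporters of the cell surface 8 rose and 1 fell, with a median log2 fold change of 0.25, again beside 15.2% higher and 13.6% lower over all genes tested. The largest called increases were in SLC7A11, which imports cystine (22.3 ± 1.65 FPKM with doxycycline and 14.3 ± 0.390 FPKM with vehicle), SLC6A9, a glycine transporter (2.10 ± 0.286 FPKM with doxycycline and 1.28 ± 0.0960 FPKM with vehicle), and SLC38A1 and SLC1A5, which carry glutamine (1.34-fold and 1.27-fold). Of 16 amino acid synthesis enzymes 4 rose (25.0%) and 3 fell (18.8%), with a median of -0.01, beside the same shares over all genes tested. ASNS, which makes asparagine, averaged 25.5 ± 3.10 FPKM with doxycycline and 19.5 ± 1.06 FPKM with vehicle, and GOT1, the cytosolic aspartate aminotransferase, rose 1.22-fold. ALDH18A1, an enzyme of proline synthesis, averaged 66.9 ± 0.859 FPKM with doxycycline and 116 ± 2.63 FPKM with vehicle, and SHMT1, which interconverts serine and glycine, fell to 0.719-fold. Whether any of these changes has a part in those of the synthetases was not tested.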

How the data were processed

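Messenger RNA of 6 libraries was sequenced. Per the labels' protocols, RNA was selected with oligo(dT) and made into strand-specific (dUTP) libraries. The deposited values are FPKM computed by the authors, 1 column per library. The submitters' processing notes name FastQC, cutadapt, HISAT2, StringTie and GRCh37, without versions. Depth is unknown, so no counting interval is given.

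Of 11461 entries, the one with the highest mean represented each of 11456 symbols, and 10469 had a mean FPKM of at least 1. limma 3.58.1 in R 4.3.3 was fitted to log2(FPKM + 1) with group as the only term and a variance trend. Fold changes on this scale understate changes of weakly expressed genes. On simulated data of 10469 genes for this comparison it recovered 73.8% of 80 genes changed by 0.5, 85% of 80 changed by 1 and 97.5% of 40 changed by 2 (log2), and 13 of 179 calls were false (7.26%).

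The members, lists and motifs were chosen with earlier results of these data known. Full values are given for up to 6 called genes per compartment with the largest absolute log2 fold change (4 mitochondrial genes were called) and for their partners. From each related list up to 4 called genes are named, and other genes named were chosen after their values were seen. Alternatives were other pseudocounts, filters, scalings and moderation, a replicate block, summed entries, a stricter limit and leaving out each library. Promoters are RefSeq's (GRCh38.p14), matched by the symbol looked up for each gene ID, so a promoter listed under another symbol would be missed. The first transcribed bases of 35 of 39 lay in a GENCODE 29 transcript on the same strand. Pair tests used scipy 1.17.1. Figures were drawn with matplotlib 3.10.9.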

Additional observations from a re-analysis of the deposited data

How the results depend on the processing

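The limits are 3 libraries per group, 1 clone, unknown depth and, for genes near the minimum level, a log2 scale that shrinks changes. At an adjusted p below 0.01, 3 cytosolic synthetases were called higher and 0 lower, and 0 mitochondrial ones higher and 2 lower. Over all genes 875 were then higher and 761 lower, and of the related lists 16 genes were higher (24 at 0.05) and 6 lower (10 at 0.05). With a minimum mean FPKM of 5 only 9 pairs could be compared, and the cytosolic gene had the larger log2 fold change in 9. Leaving out 1 library gave 6 to 7 cytosolic synthetases higher and 1 to 2 lower, 0 to 1 mitochondrial ones higher and 3 to 5 lower, 1194 to 1264 of all genes higher and 1073 to 1115 lower, and 13 to 15 pairs with the larger change in the cytosolic gene.

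The same replicate number in each group did not pair the libraries: the correlations of same-numbered deviations were 0.01, -0.03 and 0.09. With the number as a replicate block, 1 cytosolic synthetase was lower (KARS), and the calls of CARS (adjusted p = 0.0513), GARS (0.054), DARS (0.0698) and VARS2 (0.0702) ended. Over the 16 settings tested at 0.05 the range was 0.00991 to 0.0513 for CARS and 0.0112 to 0.054 for GARS. SARS was called with a minimum mean FPKM of 5 (0.0452), quantile normalization (0.0422) and robust moderation (0.0498).

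Directions turned only in genes with changes near 0. The log2 fold change of EPRS was -0.0079 with median-ratio scaling, -0.0015 with quantile normalization, -0.012 without vehicle replicate 1 and -0.026 without doxycycline replicate 2. Without vehicle replicate 3 that of FARSA was 0.0074, FARSB 0.021 and VARS 0.016. Without doxycycline replicate 1 they were 0.0026, 0.0044 and 0.0038. The other ends of the ranges over single libraries left out were 0.022 for EPRS, -0.092 for FARSA, -0.048 for FARSB and -0.017 for VARS. The cause of these moves was not tested.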
